A study of Mus musculus with 6 samples.

Results

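Ccr7 migratory dendritic cells were taken from a CITE-seq experiment on CD11b hi TOM+ cells of mouse inguinal lymph nodes, in which mRNA and DNA-tagged antibodies are counted in the same cells. All 4 mice were Cd169 Cre/+ with Tdtomato fl/fl (CD169Tom). TOM fluorescence in this line is a lasting record of Siglec1 use, the gene for CD169, in a cell or its ancestors. The 2 unimmunized mice were compared with 2 mice taken 9 days after immunization with hen egg lysozyme (HEL). A hashtag antibody marked the cells of each animal, and the mixture was run in 2 captures. Members were chosen by raw counts: a cell belonged to the population if at least 3 of the 6 genes Ccr7, Fscn1, Ccl22, Cacnb3, Nudt17 and Apol7c had a UMI (1 counted mRNA molecule). This gate held for 417 of 12139 kept cells (3.44%), of which 87 and 14 came from unimmunized 1 and 2 and 173 and 143 from immunized 1 and 2. Values for the mice are given below in this order, and a level is in CPM, the UMIs of a gene scaled to the total of all UMIs summed over the cells of 1 mouse. The summed libraries of gated cells held 1041840, 148814, 1817087 and 2184425 UMIs.

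Dendritic cells that mature in a tissue switch on the chemokine receptor CCR7, follow its ligands through lymphatic vessels, and settle in the T cell zone of the draining lymph node. During this change they take up less antigen, build long actin-rich processes, display peptides together with costimulatory molecules, and secrete chemokines that draw T cells. Siglec1 is best known from sinus macrophages of the lymph node, and the TOM mark records its past use rather than its present transcription.

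The mouse of origin of each cell was read from the hashtag tags, which are shown because every comparison between mice rests on them. They are written as deposited, 15 bases each and in lower case.
Hashtag 1, unimmunized 1: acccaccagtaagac
Hashtag 2, unimmunized 2: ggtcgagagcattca
Hashtag 3, immunized 1: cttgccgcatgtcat
Hashtag 4, immunized 2: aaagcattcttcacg
Gated cells had a median of 1426, 1164, 602 and 634 hashtag UMIs, far above the minimum of 10.

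The 6 gate genes chose the cells, so that their levels are a description and were not tested. Ccr7, on chromosome 11 from 99144196 to 99155077 (minus strand, mm10), was at 359.9, 396, 414 and 290.2 CPM in gated cells and at 10.2, 12.0, 8.74 and 5.80 CPM in all other kept cells. Fscn1, which encodes the actin-bundling protein fascin, was at 1064, 1505, 1316 and 618 CPM. Ccl22, a ligand of CCR4 on chromosome 8 from 94745590 to 94751699, was at 1077, 3555, 689 and 462 CPM. In all gated cells Ccl22 was thus highest in unimmunized 2 and lowest in immunized 2, whereas Ccr7 differed little between mice. In cells with 5 or 6 gate genes Ccl22 was at 1297, 4426, 973 and 1079.9 CPM, lowest in immunized 1. Ccr7 was at 423, 437, 528 and 705 CPM in those cells, highest in immunized 2. Cacnb3 (a calcium channel subunit), Nudt17 and Apol7c ranged over the mice from 223 to 524, from 194 to 423 and from 1323 to 2374 CPM. In all gated cells the lowest value of each was in immunized 2. With 5 or 6 gate genes Cacnb3 was at 476, 613, 710.1 and 684 CPM and Nudt17 at 433, 529, 479.9 and 512 CPM. Apol7c was at 2305, 2763, 3226 and 2562 CPM, and each was then lowest in unimmunized 1. Outside the gate Apol7c stood apart in immunized 2. A UMI of Apol7c was found in 27.8% of the other cells of immunized 2, against 5.62%, 5.35% and 7.63% in the other 3 mice.

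The gated cells of immunized 2 also stood apart by the number of gate genes they held. In that mouse 69 of 143 gated cells had exactly 3 gate genes, against 10 of 87, 2 of 14 and 32 of 173. Over all mice 517 cells had 2 gate genes and stayed out, and 113, 55, 85 and 164 cells had 3, 4, 5 and 6 of them. Genes that the gate did not use were followed over the same steps. Over all mice Socs2, a suppressor of cytokine signalling, was at 15.7 CPM with 2 gate genes, 39.5 with 3, 301 with 4, 814 with 5 and 739 with 6. C1qa, a complement gene of macrophages, was at 1119, 989.8, 468, 60.5 and 83.1 CPM over the same steps, pooled over mice, a sum to which the immunized mice gave most cells. In unimmunized 1 it was at 42.1, 423, 602, 47.4 and 125 CPM, without a fall from 2 to 4 gate genes, and in unimmunized 2 at 0 in all of these steps. In immunized 2 Socs2 was at 12.0 CPM with 2 gate genes and 12.5 CPM with 3, and C1qa at 1425 and 1188 CPM, whereas Cd83 was at 46.6 and 105 CPM. From 2 to 3 gate genes Socs2 went from 49.1 to 114 CPM in unimmunized 1, from 12.9 to 156 CPM in unimmunized 2, where the latter rests on 4 UMIs, and from 15.3 to 90.4 CPM in immunized 1. The median UMI count per cell over all mice was 13115 with 2 gate genes, 14180 with 3, 10583 with 4, 8800 with 5 and 11529 with 6, and in unimmunized 1 it was 8580, 8968, 6662, 9401 and 12034. Some results are therefore also given for the 249 cells with 5 or 6 gate genes, a setting chosen after the data were seen. Other levels and fold changes rest on all gated cells, borderline ones included. Values of immunized 2 can move far between these sets. With 5 or 6 gate genes that mouse had Net1 at 338, Cd83 at 400.5 and March1 at 4.45 CPM, to be set beside the values for all gated cells below. Unimmunized 2, with 14 gated cells, is the other library to be kept in mind.

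**Figure D1:**
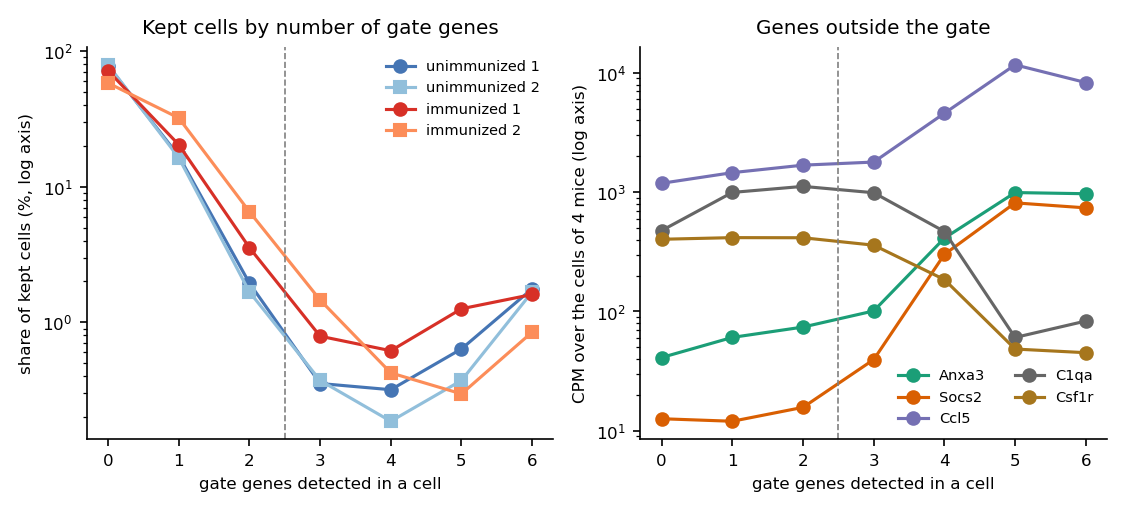
Left, share of the kept cells of each mouse (%, log axis) by the number of gate genes detected, with the gate between 2 and 3 (dashed line). Right, CPM over the cells of all 4 mice (log axis) for 5 genes outside the gate by the same number: Anxa3, Socs2 and Ccl5 were high with 5 or 6 gate genes, whereas C1qa and Csf1r stayed high up to 3 gate genes in these pooled cells, most of which came from the immunized mice.

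Markers of lymphocytes were low in gated cells, whereas those of macrophages and monocytes were not low in every mouse. The 7 T cell markers summed to 20.2, 6.72, 38.5 and 41.2 CPM in gated cells against 1427, 815, 229 and 67.6 CPM in the other cells, and in unimmunized 2 only Tcrg-C1 of them was above 0. The 5 NK cell markers summed to 56.6, 13.4, 1.65 and 5.04 CPM, with Eomes at 0 in every mouse and Gzma the most abundant. The 7 B cell markers, led by Ighm, summed to 162, 20.2, 90.8 and 60.9 CPM. Lymphocyte RNA was thus a small part of these libraries. The 10 macrophage markers summed to 579, 94.1, 760.0 and 2265 CPM against 1028, 1092, 1668 and 3293 CPM in the other cells. C1qa or C1qb led the macrophage markers in 3 mice, and in unimmunized 2 the markers C1qa, C1qb, Mertk, Cd209b, Timd4 and Siglec1 were at 0. In cells with 5 or 6 gate genes the same sum was 397, 101, 248 and 224 CPM, and in cells with 3 or 4 it was 1402, 67.2, 1702 and 3176 CPM. In the immunized mice the macrophage signal therefore lay mainly in the borderline cells, whereas in unimmunized 2 it was low in both sets. Over all mice 175 gated cells held at least 2 genes of the T cell, B cell or macrophage lists. Monocyte markers, led by Ccr2 in 3 mice, summed to 274, 33.6, 371 and 534 CPM, and neutrophil markers to 60.5, 0, 6.05 and 9.61 CPM. With 5 or 6 gate genes the monocyte sum was 149, 33.6, 198 and 114 CPM, and with 3 or 4 it was 839, 33.6, 691 and 721 CPM. The 5 stromal markers summed to 24.0, 20.2, 23.1 and 31.1 CPM. Doublets of 2 mice were removed by the hashtag rule and doublets within 1 mouse were not, and the part of doublets in these values was not tested.

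The 8 markers of type 1 dendritic cells summed to 550.0, 827, 616 and 555 CPM in gated cells against 558, 547, 363 and 370.0 CPM in other cells, and the 5 markers of type 2 dendritic cells to 285, 222, 287 and 483 CPM against 416, 465, 606 and 663 CPM. Most of the first sum came from 2 transcription factors, Irf8 at 257, 208, 362 and 380.0 CPM and Batf3 at 219, 289, 219.6 and 141 CPM. With 5 or 6 gate genes the first sum was 516, 529, 684 and 739 CPM and Irf8 was at 223, 58.8, 398 and 408 CPM. In unimmunized 2 the first sum was 2016 CPM in the 3 cells with 3 or 4 gate genes. Sirpa, a receptor also carried by macrophages, led the second sum at 233, 168, 209.7 and 347 CPM. With 5 or 6 gate genes the second sum was 197, 235, 173 and 105 CPM and Sirpa was at 175, 176, 106 and 80.1 CPM. With 3 or 4 gate genes the second sum was 685, 168, 495 and 652 CPM. Of the surface receptors that define the subsets, Xcr1, Clec9a and Cd209a were low. Cd8a, another of the type 1 markers, was not low in unimmunized 2, where 4 of 14 gated cells had a UMI of it. With 5 or 6 gate genes Cd8a was at 32.8, 159.6, 7.65 and 4.45 CPM. Xcr1 and Clec9a, receptors of type 1 dendritic cells, were at 7.68, 33.6, 0.55 and 2.29 CPM and at 6.72, 20.2, 3.30 and 15.1 CPM. With 5 or 6 gate genes Xcr1 was at 0, 0, 0.849 and 2.97 CPM. Cd209a, a lectin of type 2 dendritic cells, had 9 UMIs in all gated cells and was at 0 in both unimmunized mice. The Langerhans cell markers Cd207 and Epcam summed to 14.4, 13.4, 35.2 and 10.5 CPM against 13.2, 10.6, 4.68 and 0.803 CPM in other cells. The label migratory dendritic cell thus rested on the gate genes and on the genes described next.

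Gated cells made up 3.08%, 2.61%, 4.27% and 3.03% of the kept cells of the mice, with exact 95% binomial intervals, which cover counting error only, of 2.47 to 3.78, 1.43 to 4.34, 3.67 to 4.94 and 2.56 to 3.56%. The mean was 3.65% ± 0.878 (SD, n = 2) in immunized and 2.84% ± 0.332 (SD, n = 2) in unimmunized mice. The difference of 0.807 percentage points had p = 0.667 in a two-sided exact permutation test, in which 2 mice against 2 cannot go below 0.33. With at least 5 gate genes the shares were 2.40%, 2.05%, 2.86% and 1.14%, and the difference turned to -0.223 points. With at least 2 gate genes they were 5.02%, 4.28%, 7.82% and 9.57% (a difference of 4.05 points). With a stricter hashtag rule they were 3.12%, 3.25%, 6.02% and 4.61% (2.13 points). In both cases the groups did not overlap. The stricter rule kept 2310, 338, 1662 and 1474 of 2828, 537, 4052 and 4722 cells. The gate needs detected UMIs, and other cells had median depths of 5778, 6108, 9674 and 12690 UMIs. With cells thinned to equal depth before the gate, the shares were 2.78%, 1.96%, 3.05% and 1.20%, and the groups overlapped. The part of depth and of cells lost to the hashtag rule was not tested. In the first capture the shares were 3.22%, 2.30%, 4.01% and 3.01%, close to the whole. The other kept cells are a mixture of macrophages, monocytes and lymphocytes whose makeup differed between mice, so that a share also moves with them.

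Gated cells differed from all other kept cells of the same mice in a large part of the transcriptome. Of 10837 genes tested outside the gate list, 2706 (25%) passed a Benjamini-Hochberg adjusted p of 0.05 in the quasi-likelihood test of edgeR, 1287 (11.9%) higher and 1419 (13.1%) lower in gated cells. The median log2 fold change over all genes tested was -0.16. These genes were not used by the gate but were read in the cells it chose, so that the p-values describe the gated population and not a sample drawn without regard to expression. The count called was 185 without unimmunized 1 and 704 without unimmunized 2. Of the 2706 calls 179 and 695 were made again in the same direction in those fits, and none in the opposite direction.

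Of 19 tested chemokine and cytokine genes 7 were higher and 3 lower, with a median log2 fold change of 0.21. The shares of all genes in this fit, 11.9% higher and 13.1% lower, stand beside the counts of this and the following lists. All lists were chosen with earlier results of these data known, so that their counts are a description. The share lower in this list was near that of all genes. Ccl17, which like Ccl22 binds CCR4 and lies near it on chromosome 8 from 94810453 to 94812036, was at 291, 1122, 173 and 74.2 CPM in gated cells and at 1.90, 1.09, 0.779 and 2.44 CPM in other cells. Its log2 fold change was 7.49 ± 0.64 (SE; adjusted p = 2.1e-04). After each cell was thinned to 2000 UMIs, Ccl17 was found in 19.8%, 57.1%, 17.0% and 8.39% of gated cells and in at most 0.331% of T-like cells, ungated cells with a UMI of at least 2 of Cd3d, Cd3e and Cd3g that should lack it (50.6%, 64.3%, 31.2% and 24.5% of gated cells without thinning, at median depths of 11173, 9534, 9619 and 14180 UMIs, against 6247, 5761, 7166 and 6944 in T-like cells).

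Ccl5, a chemokine that attracts T cells, was at 5796, 4529, 8535 and 4589.8 CPM in gated cells against 938, 1346, 633 and 1816 CPM in other cells, with no overlap and a log2 fold change of 2.37 ± 0.36 (adjusted p = 0.00321). Cxcl16, the ligand of CXCR6, was at 673, 706, 867 and 686 CPM and rose by 2.40 ± 0.27 on the log2 scale (adjusted p = 7.5e-04). Il15, a cytokine that sustains memory T cells and NK cells, rose by 2.72 ± 0.30, and its presenting receptor Il15ra by 2.49 ± 0.25. Both partners of the IL-15 complex were therefore higher in gated cells. Il12b, the shared subunit of IL-12 and IL-23, was low in absolute terms at 1.92, 13.4, 16.5 and 30.2 CPM but had at most 1.05 CPM in other cells (log2 fold change 5.45 ± 0.82, adjusted p = 0.00309). Tgfb1 was lower, at 81.6, 26.9, 78.7 and 138 CPM against 214, 244, 248 and 235 CPM (log2 fold change -1.38 ± 0.27, adjusted p = 0.00972). Without unimmunized 1 this list had 1 gene called higher and none lower, against 4 and 0 without unimmunized 2. Ccl17 and Il12b passed the count filter through the gated libraries alone, so that their p-values are not read as support.

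Of 13 tested receptors that guide migration 3 were higher and 3 lower, beside 11.9% and 13.1% of all genes, with a median log2 fold change of -1.33. Ptger4, a prostaglandin E2 receptor, was at 72.0, 108, 82.0 and 57.7 CPM against 27.6, 21.5, 27.7 and 28.0 CPM (log2 fold change 1.61 ± 0.17, adjusted p = 5.8e-04). Gpr183, the oxysterol receptor that places cells at the edge of the follicle, rose by 1.59 ± 0.42 (adjusted p = 0.0276), and Cxcr4 by 0.86 ± 0.17 (adjusted p = 0.0102). Ccr2, the receptor by which monocytes leave the blood, was at 129, 0, 186 and 272 CPM against 522, 483, 831 and 674 CPM and fell by 2.02 on the log2 scale (SE 0.45, adjusted p = 0.0156). Cx3cr1 was lower as well (log2 fold change -1.92 ± 0.52, adjusted p = 0.0321). Without unimmunized 1 Ccr2 was the only one of these receptors with a call (adjusted p = 0.0430).

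Of 17 tested costimulatory genes 9 were higher and 3 lower, beside 11.9% and 13.1% of all genes, with a median log2 fold change of 1.07. Cd40, the receptor for help from T cells, was at 394, 571, 475 and 367 CPM in gated cells against 44.6, 60.5, 104 and 137 CPM (log2 fold change 2.56 ± 0.20, adjusted p = 1.4e-04). Cd83, a maturation marker that stabilizes MHC class II and CD86, was at 503, 477, 342 and 201 CPM against 22.4 to 29.6 CPM, a log2 fold change of 3.86 ± 0.20 (adjusted p = 4.4e-05). In every mouse the gated value of both genes lay above every value of the other cells. Tnfrsf4 (OX40) rose by 4.60 ± 0.32, Pvr, a ligand of TIGIT and CD226, by 3.43 ± 0.23, Tnfrsf9 (4-1BB) by 2.99 ± 0.40, and Icosl, the ligand of ICOS, by 2.83 ± 0.36. Icam1 rose by 1.49 ± 0.14 and Cd86 by 0.85 ± 0.21 (adjusted p = 0.0245), so that the classical ligand Cd86 moved far less than Cd40 or Cd83. Cd48 was lower (log2 fold change -0.92 ± 0.18, adjusted p = 0.00906). Without unimmunized 1 this list had 5 genes higher and 2 lower, against 6 and 1 without unimmunized 2. Cd40, Cd83, Tnfrsf4, Pvr and Icam1 passed without unimmunized 1, with adjusted p between 0.0430 and 0.0478.

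The NF-kB pathway turns CD40 and TNF receptor signals into transcription and holds many of its own regulators among its targets. Of 19 tested genes of that list 14 were higher and none lower in gated cells, with a median log2 fold change of 1.19 against -0.16 over all genes. Relb, the subunit of the alternative pathway, was at 532, 531, 476 and 321 CPM against 72.8, 79.0, 108 and 91.6 CPM (log2 fold change 2.48 ± 0.16, adjusted p = 7.9e-05). Birc2, an inhibitor of apoptosis in the same pathway, was at 523, 517, 707 and 344 CPM and rose by 2.69 ± 0.22. Traf1, an adaptor of TNF receptors, rose by 2.19 ± 0.17, Tnfaip3, which encodes the feedback inhibitor A20, by 1.67 ± 0.15, and Rel by 1.56 ± 0.14. The survival genes Bcl2a1d and Bcl2a1b, near-identical copies whose reads could be shared, rose by 1.85 ± 0.18 and 1.65 ± 0.20. Nfkb2 and Nfkbia moved less, by 0.78 ± 0.16 and 1.03 ± 0.19. In the absence of unimmunized 1 this list had 4 genes called higher, and in the absence of unimmunized 2 it had 14.

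Promoters of this list were searched for 1 form of the kappaB motif, because its genes were higher together. The letters GGG, then any 2 bases, then TTTCC were looked for on both strands, so that on the opposite strand they read GGAAA, any 2 bases, CCC. The search covered the 250 bases before a RefSeq start of each gene (GRCm38.p6). A gene could have more than 1 such start, and the 2 matches of Nfkb2 lie before different starts. The motif was present for 5 of 17 genes of the list that had a promoter entry (29.4%) and for none of 5 gate genes. Of all 27025 genes with a promoter entry 447 had it (1.65%). These counts are of genes, whatever their number of starts. The list was drawn up as genes of the NF-kB pathway, so that its share describes the list and not the gated cells. The windows hold at most 30 bases, run 5′ to 3′ on the strand of the gene, and have the motif in capitals.
Nfkb2, chr19:46304716-46304736: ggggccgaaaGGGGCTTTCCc
Nfkb2, chr19:46305695-46305724: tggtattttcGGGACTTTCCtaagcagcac
Nfkbia, chr12:55492657-55492686: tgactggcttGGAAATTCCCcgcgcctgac
Rel, chr11:23771041-23771070: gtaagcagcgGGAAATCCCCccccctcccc
Tnfaip3, chr10:19015411-19015432: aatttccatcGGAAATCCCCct
Bcl2l1, chr2:152830916-152830945: tacgcctctcGGAAAAACCCgggagtggtc
Of these 5 genes Bcl2l1 did not pass the test (log2 fold change 0.32 ± 0.52, adjusted p = 0.691), while Relb, Birc2 and Traf1 were higher with no match in their window. A match is a description of letters and not of a bound site.

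Regulatory and metabolic genes of mature dendritic cells had 6 of 11 tested genes higher and none lower (median log2 fold change 1.59). Socs2 was at 724, 793, 540.4 and 253 CPM against 37.4, 25.9, 7.63 and 7.51 CPM (log2 fold change 5.21 ± 0.27, adjusted p = 4.4e-05). At 2000 UMIs per cell Socs2 was found in 65.1%, 64.3%, 55.6% and 35.7% of gated cells and in 12.8%, 12.9%, 8.41% and 3.96% of T-like cells, so that T-like cells also held some of it (89.7%, 100%, 79.8% and 51.0% against 32.9%, 36.2%, 21.8% and 9.90% without thinning). Il4i1, an enzyme that breaks down phenylalanine and tryptophan, was at 879, 1209.6, 978 and 664 CPM and rose by 3.27 ± 0.23. The death receptor Fas rose by 1.59 ± 0.14.

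Aldh1a2 makes retinoic acid from retinal, a signal by which dendritic cells shape T and B cell homing. It lies on chromosome 9 from 71215789 to 71296243 and was at 209, 477, 6.60 and 18.8 CPM in gated cells. In other cells of any mouse it was at most at 0.279 CPM (log2 fold change 9.04 ± 0.60). Aldh1a2 passed the count filter through the gated libraries alone, so that its p-value is not read as support. Its level was high in both unimmunized and low in both immunized mice. At 2000 UMIs per cell it was found in 22.1% and 42.9% of the gated cells of the unimmunized mice, in 0% and 5.59% of those of the immunized mice, and in no T-like cell (48.3%, 42.9%, 3.47% and 9.09% without thinning). The 0% of immunized 1 at this depth still allows a share of cells with a UMI of up to 1.75%. Itgb8, a chain of the integrin that activates TGF-beta, was at 13.4, 155, 11.6 and 16.0 CPM against at most 0.161 CPM (log2 fold change 8.35 ± 0.96). Itgb8 also passed the count filter through the gated libraries alone. Its high value came from the 14 cells of unimmunized 2. Without unimmunized 2 the log2 fold change of Itgb8 was 7.20.

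The cytoskeleton and motility list had 16 of 20 tested genes higher, 2 lower and a median log2 fold change of 1.69. It also holds Cd63, Anxa3 and Samsn1, whose products are not proteins of the cytoskeleton. Net1, an exchange factor for RhoA, was at 338, 343, 316 and 116 CPM against 11.1, 7.09, 4.30 and 2.09 CPM (log2 fold change 5.71 ± 0.40, adjusted p = 9.7e-05). Anxa3, an annexin that binds membranes, was at 819, 1102, 746 and 376 CPM against 45.5 to 49.6 CPM (log2 fold change 4.01 ± 0.23). Cd63, a tetraspanin of late endosomes, rose by 3.29 ± 0.18, Samsn1 by 2.94 ± 0.24, Marcks by 2.46 ± 0.15 and its relative Marcksl1 by 2.04 ± 0.13. Actb and Tmsb4x, abundant in every leukocyte, rose by 0.97 ± 0.13 and 0.84 ± 0.10. The members that were lower were Tmsb10 (-0.87 ± 0.16) and Coro1a (-0.97 ± 0.18). Without unimmunized 1 this list had 7 genes higher and 0 lower, against 10 and 0 without unimmunized 2. Of the genes named here Net1, Anxa3, Cd63, Marcks and Marcksl1 passed in both fits.

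**Figure D2:**
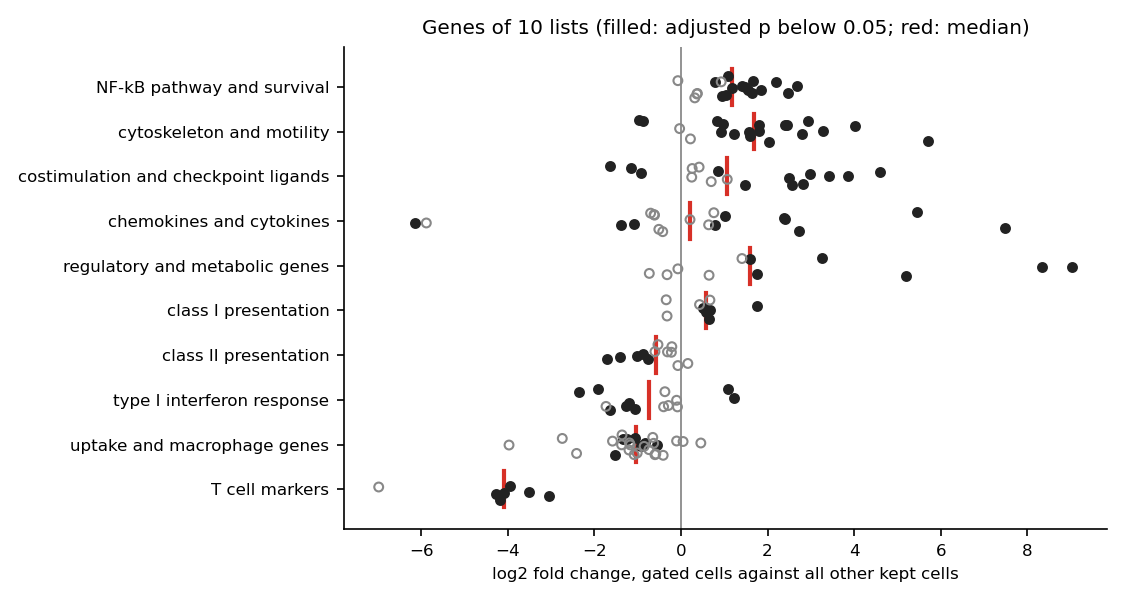
Log2 fold change of gated cells against all other kept cells (x axis) for each tested gene of 10 lists (rows). Filled points passed an adjusted p of 0.05, open points did not, and the red bar is the median of the list: 14 of 19 NF-kB genes and 16 of 20 genes of the cytoskeleton and motility list were higher, whereas no class II gene passed as higher.

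Antigen presentation genes split by class. Of 11 class I genes 7 were higher and none lower (median log2 fold change 0.58). Nlrc5, the transactivator of class I genes, was at 158, 222, 128 and 132 CPM against 41.4, 40.3, 43.9 and 68.2 CPM (log2 fold change 1.76 ± 0.18, adjusted p = 4.9e-04). H2-K1 and B2m, the heavy and light chain, rose by 0.58 ± 0.17 and 0.58 ± 0.14 (adjusted p = 0.0421 and 0.0200). Of 12 class II genes none was higher and 5 were lower (median -0.56). March1, the ligase that removes class II from the surface, was at 12.5, 20.2, 16.0 and 58.6 CPM against 51.7, 80.7, 81.4 and 111 CPM (log2 fold change -1.71 ± 0.45, adjusted p = 0.0291). Ciita, the transactivator of class II, had a log2 fold change of -0.75 ± 0.18 (adjusted p = 0.0215) and H2-DMa, which edits peptides, of -0.88 ± 0.24 (adjusted p = 0.0333). The chain H2-Aa itself was at 3865, 3763, 4287 and 6921 CPM against 3634, 5083, 6704 and 8121 CPM and did not pass (log2 fold change -0.22 ± 0.20, adjusted p = 0.448). With at least 5 gate genes 10 of the 12 class II genes were lower, in a fit that called 17.4% of all 10615 genes higher and 19.7% lower. Without unimmunized 1 no gene of either list passed, and 1 class I gene did without unimmunized 2.

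In the dendritic cell lineage list 5 of 26 genes were higher and 3 lower (median 0.03), beside 11.9% and 13.1% of all genes. Batf3 rose by 2.01 ± 0.18 (adjusted p = 3.0e-04), against 46.3 to 64.0 CPM in other cells. Flt3, the growth factor receptor of dendritic cells, was at 61.4, 128, 93.0 and 37.1 CPM against 28.8, 33.3, 18.3 and 2.78 CPM (log2 fold change 2.08 ± 0.60, adjusted p = 0.0393). Zbtb46, a transcription factor of classical dendritic cells, rose by 2.04 ± 0.44 (adjusted p = 0.0138). Clec10a and Klf4 of the type 2 branch were lower (log2 fold changes -1.34 ± 0.29 and -1.85 ± 0.38). Without unimmunized 1 no gene of this list passed, and 1 did without unimmunized 2. With at least 5 gate genes 7 were higher and 10 lower, against the 17.4% and 19.7% of all genes in that fit.

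Genes of uptake and macrophage function were lower or did not pass, 7 of 28 tested genes lower and none higher (median -1.03). Lyz2, the lysozyme of macrophages and monocytes, was at 2980.3, 470.4, 6597 and 14987 CPM against 7483, 10843, 19271 and 22774 CPM and did not pass (log2 fold change -1.58 ± 0.52, adjusted p = 0.0583). Csf1r, the receptor for macrophage growth factor, was at 85.4, 13.4, 118 and 259.6 CPM against 224, 299.8, 412 and 466 CPM (log2 fold change -1.52 ± 0.37, adjusted p = 0.0220). Within every mouse both genes were lower in gated cells, and both were highest in immunized 2. Adgre1, the gene for F4/80, was lower (log2 fold change -0.92 ± 0.22, adjusted p = 0.0214). With at least 5 gate genes 23 of 27 genes of this list were lower, against 19.7% of all genes, and without unimmunized 1 or without unimmunized 2 none was called.

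The type I interferon list had 6 of 14 genes lower, 2 higher and a median of -0.73. Of all genes 13.1% were lower and 11.9% higher. Ifit3 was at 7.68, 0, 10.5 and 10.5 CPM against 41.8, 52.3, 55.3 and 32.4 CPM (log2 fold change -2.36 ± 0.33, adjusted p = 0.00221), and Irf7, the factor that amplifies the response, had a log2 fold change of -1.64 ± 0.37 (adjusted p = 0.0170). Ifit1 was lower (log2 fold change -1.26 ± 0.16). Irf1, which also answers to interferon gamma and NF-kB, was higher by 1.23 ± 0.25 (adjusted p = 0.0117). Of the cell division list 1 of 8 genes was lower and none higher, near the 13.1% of all genes that were lower. Without unimmunized 1 the interferon list had 1 gene lower, which was Irf7, and without unimmunized 2 it had 2.

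The genes with the largest rise at a mean log2 CPM of at least 4 included several with almost no UMI elsewhere. Mucl1, a small mucin-like secreted protein, had 353 UMIs in gated cells and 1 UMI in the other 11722 cells, a ratio of CPM of 8061 (95% counting interval 1438 to 319299). It was at 125, 302, 38.5 and 49.4 CPM. Insm1, a zinc finger factor known from neuroendocrine cells, was at 94.1, 53.8, 112 and 43.0 CPM against at most 0.545 CPM (log2 fold change 8.58 ± 0.48). Genes with almost no UMI elsewhere passed the count filter through the gated libraries alone, so that their p-values are not read as support. Lad1 (8.18 ± 0.45), the adenylate cyclase Adcy6 (7.63 ± 0.45), Ankrd33b (7.54 ± 0.51), Tmem150c (6.95 ± 0.52), the transporter Slco5a1 (6.52 ± 0.38) and the leukotriene synthase Ltc4s (6.24 ± 0.33) followed, beside Aldh1a2 and Ccl17. The largest falls were of genes of other cell types, such as the T cell genes Cd3g (-4.27 ± 0.63) and Trbc2 (-4.17 ± 0.52), which move with the makeup of the other cells. For the genes with almost no UMI elsewhere, calls in fits with 1 mouse left out are not read as support either.

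A second comparison set the gated cells against 624 Flt3 DC-like cells (169, 45, 334 and 76), ungated cells with a UMI of Flt3 and of at least 1 of Zbtb46, Cd209a, Clec10a, Xcr1, Clec9a and Dpp4, which dendritic cells express. Of 9550 genes tested 2356 (24.7%) were called, 1339 (14.0%) higher and 1017 (10.6%) lower, with a median log2 fold change of -0.02. Without unimmunized 1 this count was 677, and it was 1471 without unimmunized 2. The markers that chose the Flt3 DC-like cells were not tested here.

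Against these cells most genes of 3 of the lists were also higher. The gated libraries were the same as in the first comparison, so that this is not a second, independent result. Of 19 NF-kB genes 17 were higher and none lower (median 1.47), of 17 costimulatory genes 11 and 1 (median 1.34), and of 20 genes of the cytoskeleton and motility list 17 and 2 (median 1.73). Socs2 was at 3.35 to 8.43 CPM in Flt3 DC-like cells and rose by 6.92 ± 0.35 in gated cells (adjusted p = 8.3e-07). Cd63 was at 28.5, 46.1, 33.7 and 25.3 CPM in Flt3 DC-like cells (log2 fold change 4.75 ± 0.23), Anxa3 had a log2 fold change of 4.84 ± 0.25, Ccl5 of 4.20 ± 0.31 and Cd40 of 2.76 ± 0.18. Aldh1a2 had 342 UMIs in gated cells and 0 in Flt3 DC-like cells, at least 189.7-fold higher against a floor of 3 UMIs over the group. The same bound was 196 for Mucl1, 224 for Insm1 and 51.6 for Itgb8. Aldh1a2, Mucl1, Insm1 and Itgb8 therefore had no UMI in Flt3 DC-like cells. Without unimmunized 1 the counts of higher genes in the 3 lists were 11, 7 and 14, against 14, 8 and 16 without unimmunized 2.

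Most class II genes and 11 of 19 tested lineage genes were lower than in Flt3 DC-like cells. All but 1 of 12 class II genes were lower (median -1.33), the exception being Ctss, a protease of the class II pathway, which did not pass. H2-Oa and H2-Ob encode a regulator that restrains peptide editing. H2-Oa was at most at 40.3 CPM in the gated cells of any mouse and at 197, 221, 228 and 169 CPM in Flt3 DC-like cells (log2 fold change -2.68 ± 0.21). H2-Ob was at 14.4, 26.9, 5.50 and 4.12 CPM against 137, 116, 83.9 and 49.8 CPM (log2 fold change -3.25 ± 0.27). The log2 fold change was -2.24 ± 0.36 for March1, -1.56 ± 0.18 for Ciita, -1.08 ± 0.15 for H2-Ab1 and -0.73 ± 0.13 for H2-Aa. Of 19 tested lineage genes 11 were lower and 2 higher (median -1.60), with Kmo at -2.64 ± 0.39, Cadm1 at -2.26 ± 0.31, Cd8a at -2.26 ± 0.42, Klf4 at -2.79 ± 0.29 and Irf8 at -0.74 ± 0.13. The higher ones were Batf3 (1.22 ± 0.18) and Id2 (0.90 ± 0.18), both regulators of type 1 dendritic cells. Stmn1, a microtubule gene of dividing cells, was lower (log2 fold change -1.98 ± 0.28). Ckb, a creatine kinase, was among the 10 largest falls, at 12.5, 26.9, 14.9 and 16.5 CPM against 294, 242, 194 and 186 CPM (log2 fold change -3.73 ± 0.21, adjusted p = 1.0e-06). Without unimmunized 1 the class II list had 6 genes lower and the lineage list 4, against 8 and 9 without unimmunized 2.

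**Figure D3:**
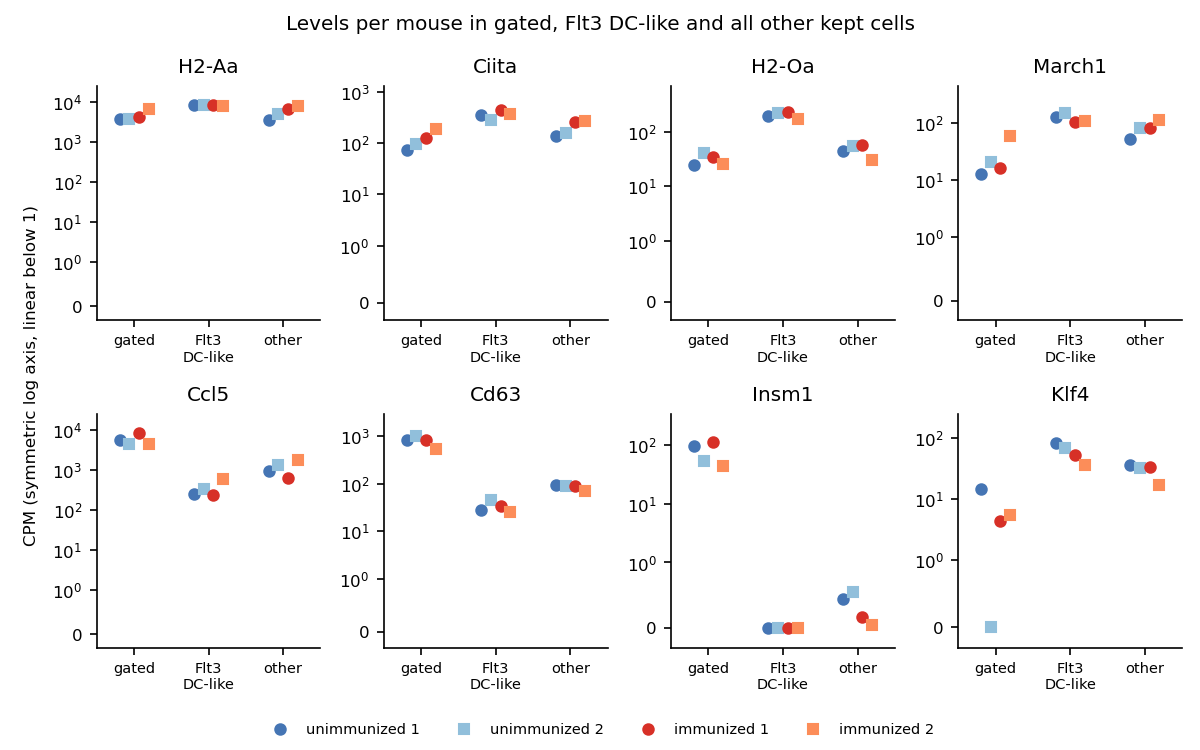
CPM (symmetric log axis, linear below 1) in gated, Flt3 DC-like and all other kept cells for 8 genes, 1 point per mouse. Gated cells lay below Flt3 DC-like cells for H2-Oa and March1 and above them for Ccl5, Cd63 and Insm1 in every mouse.

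Antibody counts on the same cells gave 6 surface proteins, as centred log ratios (CLR) averaged per mouse. CD11c (antibody tag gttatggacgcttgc, 15 bases) was at 1.87, 2.00, 1.72 and 1.78 in gated cells against 0.337, 0.559, 0.690 and 1.00 in other cells and was higher in 4 of 4 mice, by 1.20 ± 0.354 (SD, n = 4; p = 0.13 in an exact sign-flip test, whose minimum with 4 mice this is; adjusted p = 0.375 over 6 antibodies). Flt3 DC-like cells had CD11c at 1.75, 1.74, 1.85 and 1.83. The gene Itgax for CD11c was at 144, 141, 75.4 and 137 CPM in gated cells against 80.9, 105, 87.8 and 129 CPM in other cells. Ly-6c was lower in 4 of 4 mice, with a difference of -0.475 ± 0.301 (exact p = 0.13, adjusted p = 0.375). CD169 (tag attgacgacagtcat) was at -0.180, -0.0385, -0.638 and -0.572 in gated cells against 0.926, 0.542, -0.188 and -0.657 in other cells, lower in 3 of 4 mice and not in immunized 2. CD68, F4/80 and Ly-6g differed by -0.260 ± 0.284, 0.106 ± 0.187 and -0.0537 ± 0.108 (exact adjusted p = 0.375 for each). No antibody difference passed the threshold, which 4 mice could not reach. Within gated cells CD169 differed by -0.496, Ly-6c by 0.495 and CD11c by -0.187 between immunized and unimmunized mice (exact permutation p = 0.33 for each, the smallest that 2 mice against 2 allow, adjusted p = 0.667).

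**Figure D4:**
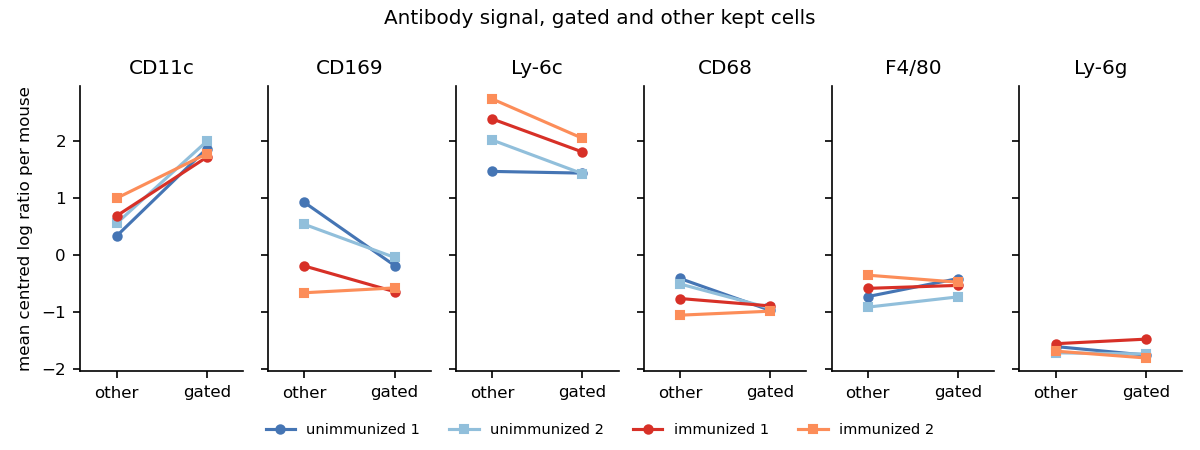
Mean centred log ratio of 6 antibodies per mouse (y axis) in other and gated cells, with a line for each mouse. CD11c was higher and Ly-6c lower in gated than in other cells of all 4 mice.

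Gene counts for the label itself were low. Siglec1 was at 7.68, 0, 2.75 and 10.1 CPM in gated cells against 12.2, 11.7, 13.6 and 27.8 CPM in other cells (log2 fold change -1.17 ± 0.50, adjusted p = 0.121). Tomato was at 3.84, 0, 3.30 and 6.41 CPM against 2.96, 2.45, 4.89 and 6.10 CPM (log2 fold change 0.13 ± 0.44, adjusted p = 0.867). The cells had been sorted as TOM+ by fluorescence, and at this depth the transcript did not tell gated from other cells.

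Immunization was compared within gated cells over 2 mice against 2. No gene passed an adjusted p of 0.05 in edgeR (0%), 1261 of 10837 (11.6%) had an unadjusted p below 0.05, and DESeq2 called 77 genes, 29 higher and 48 lower in immunized mice. In CPM 2466 genes (22.8%) were higher in both immunized mice than in both unimmunized mice and 2045 (18.9%) were lower in both. With at least 5 gate genes these shares were 19.2% and 16.1%. The edgeR count was 704 without immunized 1 and 102 without immunized 2, and 0 when either unimmunized mouse was left out. With 1 mouse left out its group is a single library whose spread is taken from the other groups, so that these calls are no support for a change.

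Aldh1a2 had the widest gap among the named genes that were lower after immunization. The levels given above, 209 and 477 against 6.60 and 18.8 CPM, differed by -4.52 ± 0.60 on the log2 scale (edgeR adjusted p = 0.181). DESeq2 called it (adjusted p = 1.2e-06). In cells with 5 or 6 gate genes Aldh1a2 was at 203, 588, 6.80 and 57.8 CPM, again with no overlap. Ccl9, a ligand of CCR1, was at 181 and 262 against 69.9 and 58.6 CPM (log2 fold change -1.64 ± 0.24, edgeR adjusted p = 0.186, DESeq2 adjusted p = 5.7e-06). Ccl17 was at 291 and 1122 against 173 and 74.2 CPM (edgeR adjusted p = 0.369), and at 353, 1377, 233 and 193 CPM with 5 or 6 gate genes. Cd8a, carried by resident type 1 dendritic cells, was at 37.4 and 168 against 5.50 and 4.12 CPM (edgeR adjusted p = 0.367). For Cd8a the other cells showed the same order at 39.4 and 32.4 against 12.3 and 3.34 CPM, whereas Ccl9 in other cells did not, at 68.8 and 65.7 against 87.1 and 66.0 CPM. The scavenger receptor Cd36 was at 23.0 and 13.4 against 2.75 and 3.66 CPM (log2 fold change -2.63 ± 0.37, edgeR adjusted p = 0.186). In unimmunized 2 and in both immunized mice these levels rest on few UMIs. With 5 or 6 gate genes Cd36 was at 11.7, 8.40, 1.70 and 4.45 CPM.

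Of 14 type I interferon genes 9 were higher in both immunized mice than in both unimmunized mice and 0 lower in both, against 22.8% and 18.9% of all genes, and none passed in edgeR. Isg15, a ubiquitin-like protein induced by type I interferon, was at 119 and 53.8 against 386 and 392 CPM (log2 fold change 2.06 ± 0.36, edgeR adjusted p = 0.251, DESeq2 adjusted p = 3.4e-04). Ifit1, which binds foreign RNA, was at 9.60 and 6.72 against 50.1 and 47.2 CPM (log2 fold change 2.47 ± 0.28, edgeR adjusted p = 0.0932, DESeq2 adjusted p = 3.7e-04). In the other cells Isg15 was at 142, 225, 261 and 274 CPM and Ifit1 at 48.7, 43.6, 66.6 and 57.8 CPM. Ifit1 was thus lower in gated than in other cells of every mouse. Isg15 was lower in gated than in other cells of the unimmunized mice and higher in all gated cells of the immunized mice. With 5 or 6 gate genes Isg15 was at 97.2, 67.2, 257 and 412 CPM, in immunized 1 not above the 261 CPM of the other cells. Ifit1 was at 8.20, 0, 23.8 and 17.8 CPM. In this setting 7 of the 14 genes were higher and 1 lower in both immunized mice, beside 19.2% and 16.1% of all genes.

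**Figure D5:**
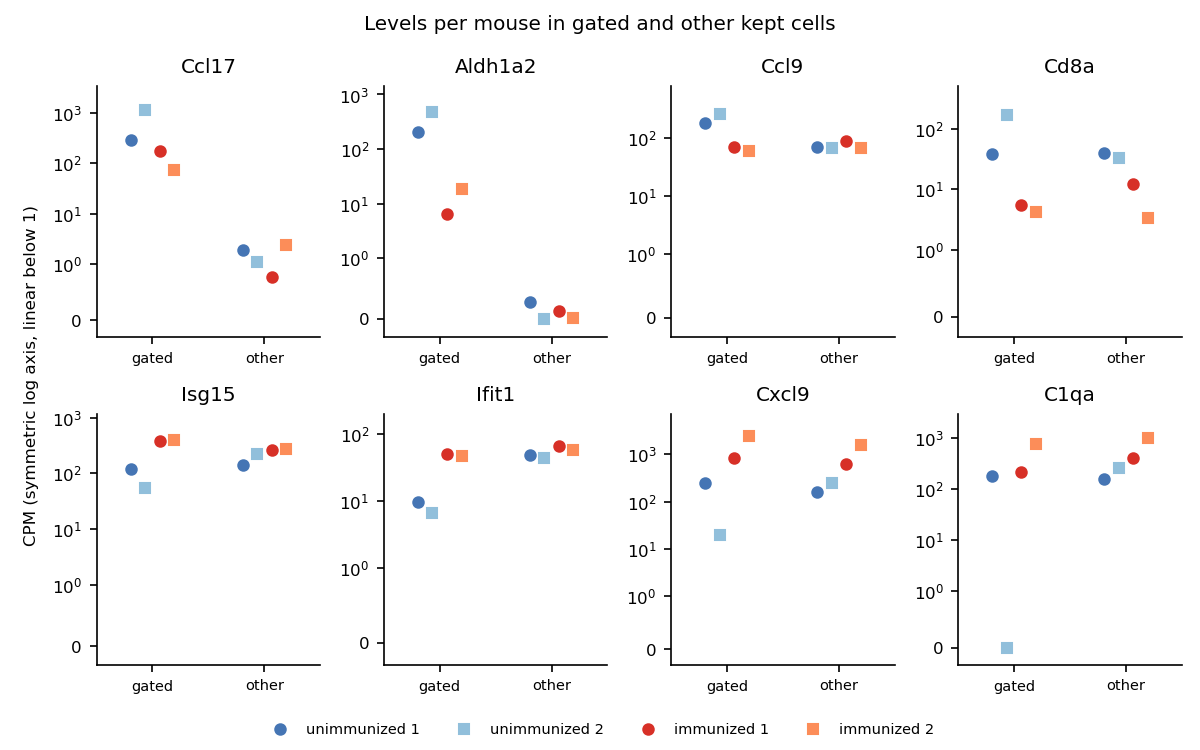
CPM (symmetric log axis, linear below 1) in gated and other kept cells for 8 genes, 1 point per mouse. In gated cells Ccl17, Aldh1a2, Ccl9 and Cd8a were lower, and Isg15, Ifit1, Cxcl9 and C1qa higher, in both immunized mice than in both unimmunized mice.

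For other genes the order of the mice moved with the macrophage markers. Cxcl9, an interferon gamma chemokine, was at 249.6, 20.2, 832 and 2375 CPM in gated cells and Lyz2 at 2980.3, 470.4, 6597 and 14987 CPM, both highest in immunized 2, where the macrophage markers were highest too. With 5 or 6 gate genes Cxcl9 was at 234, 16.8, 133 and 829 CPM, Lyz2 at 1866, 445, 1847 and 2102 CPM and C1qa at 108, 0, 82.4 and 40.0 CPM, so that the groups overlapped for each. Of 28 uptake and macrophage genes 15 were higher and 1 lower in both immunized mice, beside 22.8% and 18.9% of all genes, and of 27 in cells with 5 or 6 gate genes 3 were higher and 3 lower, beside 19.2% and 16.1%. Of 12 class II genes 7 were higher and 1 lower in both immunized mice, and with 5 or 6 gate genes 1 was higher and 5 were lower. H2-DMb1 was at 162, 148, 316 and 596 CPM, and H2-Ab1 at 3345, 2762, 4684 and 7976 CPM, but with 5 or 6 gate genes H2-Ab1 was at 2771, 2075, 2416 and 2016 CPM. The part of borderline cells in these differences is shown only by that setting and was not tested further.

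Of 11 class I genes 10 were higher and 1 lower in both immunized mice, and 8 were higher and 1 lower with 5 or 6 gate genes, beside 22.8% and 19.2% of all genes higher. Psmb8, an immunoproteasome subunit, was at 976, 968, 1505 and 1409 CPM and B2m at 4188, 3992, 4835 and 4390.2 CPM, and with 5 or 6 gate genes at 1040.4, 1058, 1617 and 1841 CPM and at 4292, 4477, 5239 and 5028 CPM (edgeR adjusted p = 0.398 for Psmb8 in all gated cells). Il12b was at 1.92 and 13.4 against 16.5 and 30.2 CPM (edgeR adjusted p = 0.369), and Tnfsf9, the ligand of 4-1BB, at 6.72 and 0 against 29.2 and 27.9 CPM (edgeR adjusted p = 0.367). The level of Il12b came from 1 gated cell in each unimmunized mouse. Ccl5 overlapped in all gated cells but was at 6552 and 4199.6 against 11351 and 10101 CPM with 5 or 6 gate genes. Socs2 was at 724 and 793 against 540.4 and 253 CPM in all gated cells and at 831, 949, 725 and 705 CPM with 5 or 6 gate genes. Adam8, a metalloproteinase, and the complement factor Cfb had an edgeR adjusted p of 0.0932, as Ifit1 did, and were chosen after their values were seen. Adam8 was at 274, 349, 65.5 and 76.5 CPM in all gated cells and at 310.5, 420.0, 92.6 and 218 CPM with 5 or 6 gate genes. Cfb was at 69.1, 40.3, 464 and 765 CPM in all gated cells but at 37.5, 42.0, 58.6 and 234 CPM with 5 or 6 gate genes, so that the gap between the groups was smaller in both genes and narrow for Cfb in immunized 1.

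Whether immunization changed gated cells differently from the other cells was tested as an interaction. No gene passed an adjusted p of 0.05 in edgeR, 759 of 10837 (7%) had an unadjusted p below 0.05, and DESeq2 called 29. With the mouse as a replicate block, which pairs the gated and other cells of 1 animal, 54 genes were called, 36 with a more positive and 18 with a more negative effect of immunization in gated than in other cells. The count was 132 without immunized 1, 70 without immunized 2 and 0 without either unimmunized mouse. For Ccl9 the interaction was -2.05 ± 0.31 (edgeR adjusted p = 0.557), and 0.00805 was the adjusted p with the block. For Ifit1 it was 1.82 ± 0.33 (edgeR adjusted p = 0.557), for Isg15 1.30 ± 0.47 (0.700) and for Aldh1a2 -3.03 ± 1.73 (0.784), the last with almost no UMIs in the other cells.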

How the data were processed

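The authors deposited 1 filtered matrix of UMI counts for 18662 barcodes and 32287 features over 2 captures, with antibody and hashtag counts, made with Cell Ranger 4.0.0 (mm10) and CITE-seq-count per the labels. The sources used here do not say whether depth was equalized between captures. Barcodes with over 25% mitochondrial UMIs (1425) and the 1242 barcodes whose sequence occurred in both captures (621 sequences) were left out, and a cell needed 1 hashtag with at least 80% of its hashtag UMIs and at least 10 of them. Hashtags also remove doublets of 2 mice, and no other doublet caller was run. Thinning to 2000 UMIs left out 491 cells.

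Raw counts were summed per mouse and population and tested with edgeR 4.0.16 (R 4.3.3; TMM, filterByExpr, quasi-likelihood test, Benjamini-Hochberg adjustment at 0.05), with DESeq2 1.42.0 as an alternative. Every adjusted p for a gene comes from edgeR unless DESeq2 is named. Errors of log2 fold changes are SE. Each mouse gave a gated and a comparison library, so that the mouse pairs them by origin, and a fit with the mouse as a replicate block was an alternative. Antibody counts were centred log ratios, averaged per mouse. Other alternatives changed size factors, the count filter, the gate, the mitochondrial and hashtag limits and the capture, and left out each mouse, where the lone library of that group was assumed to vary like the other groups. Named genes were members of the gate, of the marker and pathway lists, and the 10 largest called rises and falls at a mean log2 CPM of at least 4 with the same direction in every mouse. The members and lists were chosen with earlier results of these data known. Promoters were RefSeq sequences (GRCm38.p6). On simulated data with 200 changed genes the test recovered 76% of 4-fold and 13% of 2-fold changes for gated against other cells, 90% and 21% against Flt3 DC-like cells, 29% and 0% for immunization, and 4% and 0% for the interaction. The simulated libraries were independent, with a fixed dispersion of 0.1 and no effect shared by libraries of 1 mouse. Only genes above a minimum expected count were changed. These rates hold for those settings and are not the power in the real data. The mice of a group are separate animals, and 2 per group is the limit of every comparison of immunization.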

Additional observations from a re-analysis of the deposited data

How the results depend on the processing

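The difference in share between immunized and unimmunized mice was 0.807 points and turned to -0.186 with 3 of the 4 marker genes, -0.247 with a gate set after thinning, -0.00250 without gated cells that held genes of other lineages and -0.223 with at least 5 gate genes, while it was 4.05 with at least 2 gate genes and 2.13 with the stricter hashtag rule, and it ranged from 0.187 to 1.43 with 1 mouse left out. The count of genes called between gated and other cells (2706) was 1020 with at least 2 gate genes, 4112 after thinning and 1368 in the second capture alone, and 185 to 3617 with 1 mouse left out. Against Flt3 DC-like cells (2356) it was 3578 after thinning, 1349 in the second capture and 677 to 2906 with 1 mouse left out. With the mouse as a replicate block these counts were 3288 and 2833, and the interaction gave 54 in place of 0. For immunization (0) it was 77 in DESeq2, 579 with no filter on low counts, 5 with the stricter hashtag rule, 3 in the first capture and 0 to 704 with 1 mouse left out. For the interaction (0) it was 29 in DESeq2, 186 with no filter and 0 to 132 with 1 mouse left out. The causes were not tested.

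Some values of named genes changed sign. Gated against other cells, Bcl2l1 ranged from -4.77 to 0.78, H2-Aa from -0.38 to 0.04 and Tomato from -4.18 to 0.33 with 1 mouse left out, and H2-Aa was at 0.04 with at least 2 and Tomato at -0.07 with at least 4 gate genes (log2 fold changes). After immunization Ccl5 ranged from -0.03 to 0.78 with 1 mouse left out, C1qa was at -0.28 and H2-Ab1 at -0.00 with at least 5 gate genes, and H2-Aa at -0.08, -0.03 and -0.24 with the 4 marker genes, after thinning and with at least 5 gate genes. The interaction of Aldh1a2, -3.03 in all gated cells, was 1.32 after thinning and 0.35 with at least 5 gate genes.

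For antibodies, gated minus other F4/80 was -0.0419 on log2 means, and Ly-6g was 0.00151, 0.00521 and 0.00977 with the 4 marker genes, after thinning and with the stricter hashtag rule. Immunized minus unimmunized CD68 was -0.237 with at least 2 gate genes, -0.0702 in the second capture, -0.754 on log2 means and -0.0331 to 0.0591 with 1 mouse left out. The same difference for F4/80 was -0.0764 with at least 4 gate genes, -0.154 with the 4 marker genes and after thinning, -0.149 without the highest UMI counts, -0.181 without cells of other lineage genes, -0.151 with at least 5 gate genes, -0.0927 on log2 means and -0.0918 to 0.229 with 1 mouse left out. CD11c was at 0.0377 with at least 2 gate genes, and Ly-6g at -0.572 on log2 means and -0.0609 to 0.273 with 1 mouse left out. Of the values of named genes under alternatives, 1342 against other cells and 554 against Flt3 DC-like cells kept direction and side of the threshold, and 124 and 16 kept direction but lost the call, 49 of the 124 without unimmunized 1 and 30 without unimmunized 2.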
